A study of Mus musculus with 4 samples.

Results

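The CCN family is a set of 6 genes, Ccn1 to Ccn6, that encode secreted matricellular proteins. They were found by symbol in a table of 55401 mouse genes, and all 6 were present, 5 of them with enough counts to be tested. Poly(A) RNA of whole-tissue heart samples was sequenced at day 28 in Sham hearts (n = 2), where the chest was opened and no ligation was made, and in MI hearts (n = 2), where the ligation operation caused a myocardial infarction. The labels used here state no strain, sex or age and do not say that replicates were separate animals, so p-values measure only how these libraries spread, which may be technical variation. The region of the heart taken is not given for each sample. The series title names the plant pigment cyanidin, and treated hearts were not analysed here.

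CCN proteins lie in the extracellular matrix without forming its scaffold. They are built from modules that resemble insulin-like growth factor binding proteins, von Willebrand factor C and thrombospondin, followed by a cysteine knot that Ccn5 lacks, and they act on cells largely through integrins, heparan sulfate proteoglycans and LRP receptors. In the heart Ccn2, known as connective tissue growth factor, is made by myocytes and fibroblasts under stretch and TGF-beta signalling, and Ccn1 is an immediate early gene that also answers to mechanical load. Ccn5 is known as an opponent of fibrosis, while Ccn4 was found as a Wnt target.

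Total estimated counts were 66624106 to 75979320 per library, and low values pile up at multiples of 4, so that 12 counts stand for about 3 fragments and were taken as the floor per library. Such a floor allows for counting error alone, because PCR copies of a fragment are not separate molecules. All 10 cardiomyocyte markers were present in every library, with a summed level of 13690 to 14970 FPKM (the unit of the deposited table that is scaled for gene length and library size). A pair of libraries stand apart. Sham replicate 2 carried 1585 FPKM of 9 atrial markers, against 12.1 in Sham replicate 1 and 21.3 and 14.2 in MI replicates 1 and 2, Nppa being left out because stressed ventricles make it too (with Nppa the sums are 5100, 163.5, 2653 and 1869). It was also the only library with all 8 adipocyte markers above 0 (158 FPKM in sum, 0.01 to 0.43 in the others). MI replicate 1 was the only library with all 10 lung epithelium markers above 0. Without Hopx, which stood at 38.1 to 71.4 FPKM in all 4 libraries, the other 9 summed to 289 FPKM there and to 0.12 to 0.86 elsewhere. This library was also the only 1 with all 9 skeletal muscle markers above the floor, against 5 to 7 in the others. In bulk tissue a change in the number of cells of a type and a change in RNA per cell cannot be told apart.

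Ccn2 was the most abundant member in each library and Ccn1 the next. Per length, Ccn2 made up 69.4% of the summed CCN level in Sham replicate 1 and 83.6% in Sham replicate 2, against 68.8% and 77.0% in the MI libraries. The order of the lower members was Ccn5, Ccn3, Ccn4 and Ccn6 in 3 libraries. In Sham replicate 2 Ccn3, at 3.16 FPKM, stood above Ccn5, at 2.20. The ranges of Ccn3 and Ccn5 overlapped in Sham, so these neighbours did not differ beyond their spread there. Those of Ccn3 and Ccn4 overlapped in MI, although Ccn3 was above Ccn4 within each of the 4 libraries. In MI the Ccn5 level was 12.1 and 6.91 times that of Ccn3, against 1.84 and 0.696 times in Sham. Among the tested genes the mean level of Ccn2 was above 98.5% of genes, of Ccn1 above 94.5%, of Ccn5 above 82.4%, of Ccn3 above 51.3% and of Ccn4 above 30.2%.

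**Figure D1:**
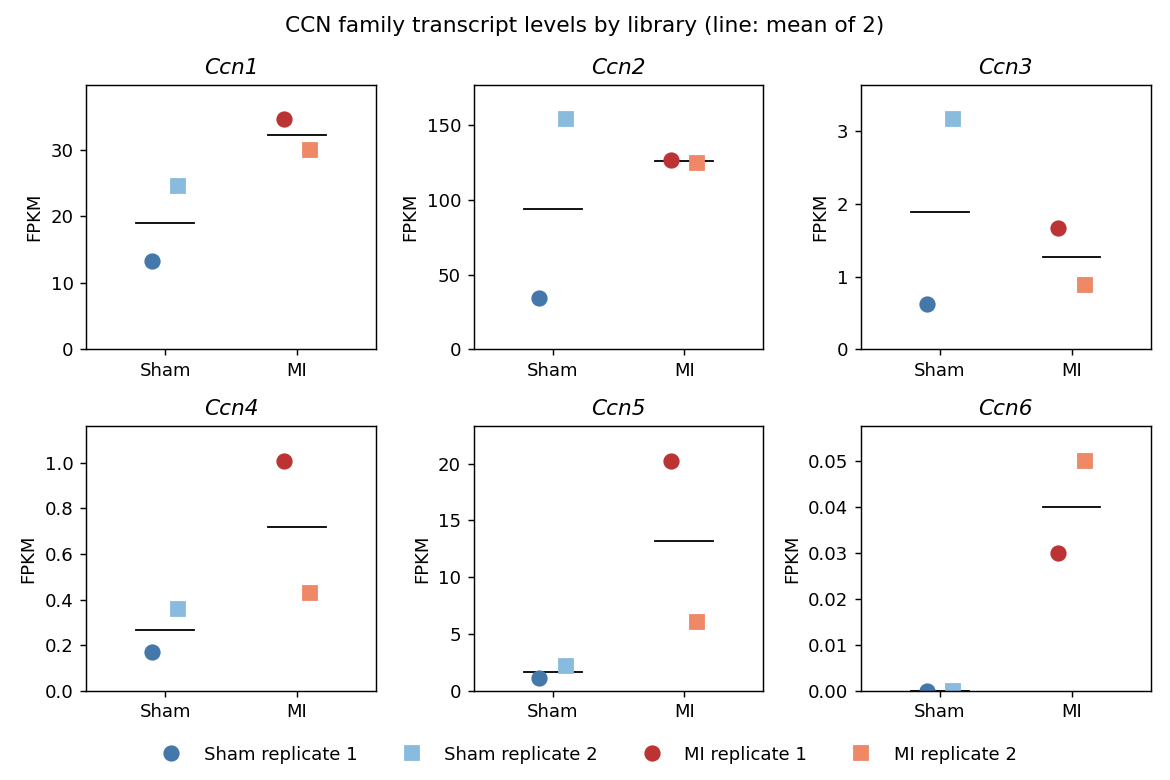
Transcript level (FPKM, linear axes from 0 that differ between panels) of each CCN gene in the 4 libraries, with the mean of each group of 2 as a line. The MI points lie above the Sham points for Ccn1, Ccn4 and Ccn5, while for Ccn2 and Ccn3 the Sham libraries lie on either side of the MI libraries.

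In the comparison of MI with Sham, edgeR's quasi-likelihood test called 0 of the 5 tested members at a threshold of 0.05 on the adjusted p, and 0% of all 18475 genes tested. At an unadjusted p under 0.05 there was 1 member, Ccn5, higher in MI, where 11.6% of all genes passed (7.12% higher in MI and 4.51% lower). DESeq2 called 1 member, again Ccn5, against 3.44% of all genes (2.18% up and 1.26% down in MI). The limma test on log2(FPKM + 1) called 0 members and 0 of all genes. The groups did not overlap, with MI higher, for 3 of the 5 members and for 24.9% of all genes. The members' median log2 difference was 0.57, against 0.00312 over all genes tested. An exact permutation test of 2 libraries against 2 cannot give a 2-sided p below 0.333, so no such test was used.

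Ccn5 (older symbol Wisp2; ENSMUSG00000027656, chromosome 2, 163820861 to 163833146, plus strand, GRCm38) encodes the member without the cysteine knot, and it had the largest difference of the family. It stood at 1.14 and 2.20 FPKM in Sham replicates 1 and 2 and at 20.3 and 6.08 in MI replicates 1 and 2. Both MI libraries were above both Sham libraries, and MI replicate 1 was the highest by far. Scaled for library size only, the level was 3.75 ± 1.41 CPM (SD, n = 2) in Sham and 24.9 ± 17.5 in MI. The log2 difference was 2.73 ± 0.61 (SE), or 6.64-fold, with an unadjusted p of 0.00714 and an adjusted p of 0.305 in edgeR. In DESeq2 the log2 difference was 2.72 ± 0.55 with an adjusted p of 8.02e-05. Of all genes tested 1.02% had a higher log2 difference.

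The size of the Ccn5 difference moved with MI replicate 1, the library that carried lung transcripts and the most skeletal muscle markers above the floor. Ccn5 was 2.97 times higher there than in MI replicate 2, and 7.27% of all tested genes had a larger ratio between the MI libraries, in either direction. Without MI replicate 1 the log2 difference was 1.75 ± 0.44, and without MI replicate 2 it was 3.32 ± 0.41. Summed activated fibroblast markers ran the same way, at 312 FPKM in MI replicate 1, 186 in MI replicate 2, and 21.0 and 31.7 in the Sham libraries, as did the summed fibroblast markers (782, 630.5, 294 and 464). Summed markers of other cell types ran in this order too. Macrophage markers summed to 430.5, 228, 176 and 209 FPKM in the same order of libraries, smooth muscle and pericyte markers to 317, 242, 178.5 and 221, endothelial markers to 397, 342, 251 and 285, and Schwann cell markers to 40.0, 31.4, 11.1 and 15.1. Single markers did so less evenly. Both MI libraries were above both Sham libraries in CPM for 4 of 10 macrophage and 4 of 10 smooth muscle and pericyte markers. For endothelial and Schwann cell markers this held for 7 of 10 and 2 of 6 tested. For fibroblast and activated fibroblast markers it held for 9 of 10 and 11 of 11, and for all tested genes the share was 24.9%. Of 19 gene and marker lists, 8 had the order of Ccn5 over the libraries in summed FPKM. The part of these cell types in the Ccn5 result, and that of the lung and skeletal muscle transcripts, was not tested.

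The profile of Ccn5 over the 4 libraries was nearest to those of matrix genes of fibroblasts. Among 10714 other genes with a mean of at least 1 FPKM, the smallest Euclidean distance between centred log2(FPKM + 1) values was that of Col1a1 (0.14), followed by Col1a2 (0.24) and Fn1 (0.29). Col1a1 and Col1a2 encode the chains of type I collagen and Fn1 encodes fibronectin. Col1a1 stood at 8.22 and 12.1 FPKM in Sham and at 87.9 and 32.0 in MI. Dcn encodes decorin, a proteoglycan of resting and activated fibroblasts alike. The ratio of Ccn5 to Dcn was 0.0257 and 0.0379 in Sham and 0.219 and 0.0654 in MI. To Col1a1 the ratio was 0.139 and 0.1815 in Sham and 0.231 and 0.190 in MI. To Fn1 it was 0.362 and 0.463 in Sham and 0.668 and 0.560 in MI. Each ratio was higher in both MI libraries than in either Sham library. For Col1a1, MI replicate 2 lay close to Sham replicate 2. With 4 libraries such likeness is a description. Ccn4 and Ccn6 averaged under 1 FPKM and were not compared in this way.

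**Figure D2:**
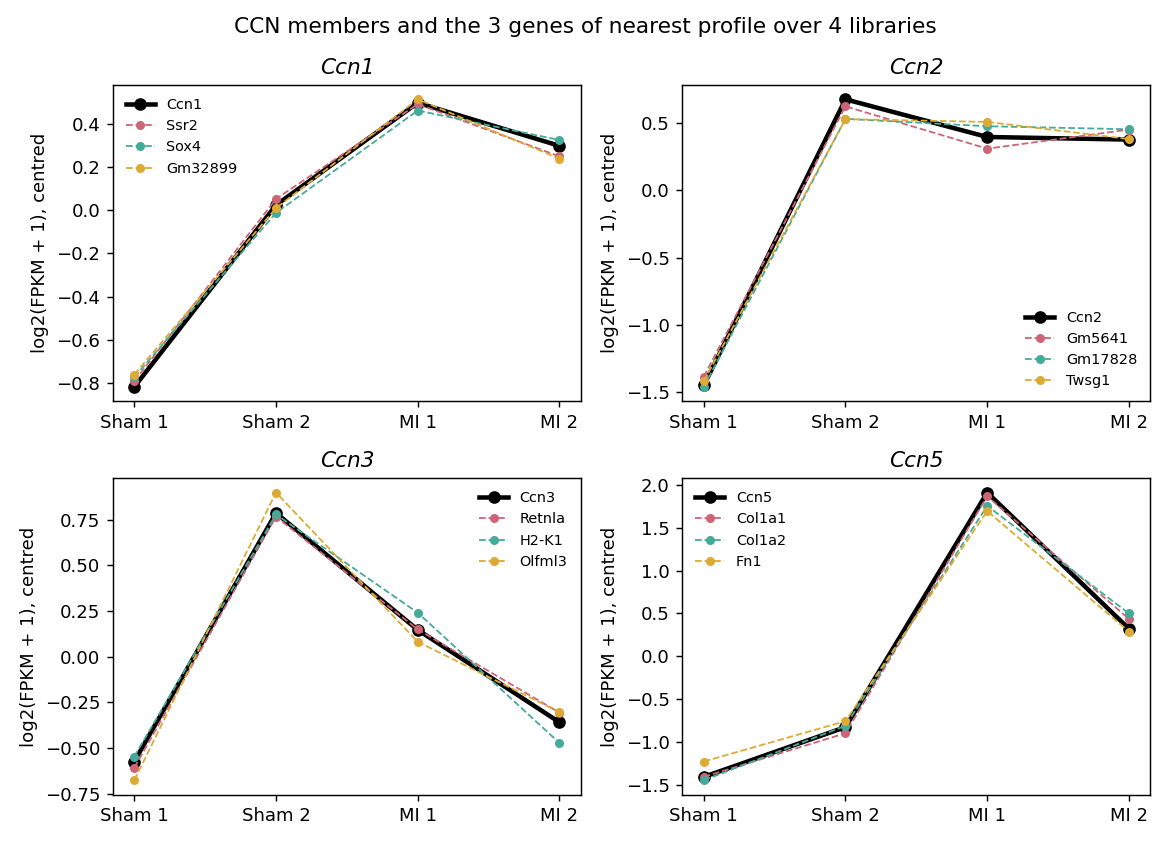
Centred log2(FPKM + 1) of 4 CCN members (black) and of the 3 genes with the nearest profile (dashed) in each library; lines join the values of 1 gene and libraries have no order. Ccn5 runs with Col1a1, Col1a2 and Fn1, highest in MI replicate 1, and each of the 4 members is lowest in Sham replicate 1.

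Ccn4 (older symbol Wisp1; ENSMUSG00000005124, chromosome 15, 66891320 to 66923201, plus strand) encodes a CCN protein made by fibroblasts and bone-forming cells. It was low, at 0.17 and 0.36 FPKM in Sham replicates 1 and 2 and at 1.01 and 0.43 in MI replicates 1 and 2. These levels rest on 76, 146, 448 and 198 counts in the same order, all above the floor. The groups did not overlap, but MI replicate 2 lay close to Sham replicate 2. Scaled for library size, Ccn4 averaged 1.72 ± 0.75 CPM (n = 2) in Sham and 3.96 ± 1.99 in MI. Its log2 difference was 1.20 ± 0.53 and did not pass (edgeR, unadjusted p = 0.0731, adjusted p = 0.467). Without MI replicate 1 the log2 difference was 0.57, without MI replicate 2 1.65, without Sham replicate 1 0.82 and without Sham replicate 2 1.73.

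Ccn1 (older symbol Cyr61; ENSMUSG00000028195, chromosome 3, 145646976 to 145649981, minus strand) encodes an angiogenic and adhesive protein. It stood at 13.3 and 24.6 FPKM in Sham replicates 1 and 2 and at 34.5 and 30.0 in MI replicates 1 and 2. The MI libraries lay close together, and the Sham libraries lay below them and further apart. The level was 44.3 ± 15.7 CPM (n = 2) in Sham and 65.7 ± 1.34 in MI. The log2 difference was 0.57 ± 0.26 and did not pass (edgeR, unadjusted p = 0.0858, adjusted p = 0.486). The log2 difference was 0.25 without Sham replicate 1 and 0.98 without Sham replicate 2. The nearest profiles were those of Ssr2, a subunit of the translocon-associated complex (distance 0.06), the transcription factor Sox4 (0.07) and the processed pseudogene Gm32899 (0.09), whose counts could include reads of its parent gene.

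The start of Ccn1 is shown because it holds motifs of TEAD and SMAD factors, whose pathways have gene lists counted further on. The window is chr3:145649936-145650235 on the minus strand (GRCm38.p6, RefSeq), from 250 bases before to 50 after the start site. Of the 6 members 2, Ccn1 and Ccn6, had a promoter in the table used. Capitals mark, from left to right, CATTCC, the TEAD core GGAATG read on the other strand, then CGTCA, the core TGACG of the cyclic AMP response element on the other strand, then the TATA box TATAAA, and the short SMAD element CAGAC.
Ccn1: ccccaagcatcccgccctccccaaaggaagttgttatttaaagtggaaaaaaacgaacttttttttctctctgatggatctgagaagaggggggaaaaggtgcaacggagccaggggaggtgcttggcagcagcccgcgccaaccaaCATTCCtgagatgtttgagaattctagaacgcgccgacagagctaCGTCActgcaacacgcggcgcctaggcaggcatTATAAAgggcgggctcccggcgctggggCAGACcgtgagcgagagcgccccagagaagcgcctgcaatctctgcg
Of 32851 promoter windows of this length, 14.7% held GGAATG, 20.8% TGACG and 49.6% CAGAC on either strand, and 8.32% held TATAAA on the forward strand. The window had no match to the AP-1 motif TGANTCA (7.81% of windows, either strand). The listed motifs do not overlap each other here, a match is no evidence of binding, and the absence of a match concerns these letters in this window only. The window of Ccn6, a gene under the floor in every library, held CAGAC at -22 and 36 and TGACG at -36 from its start site.

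Ccn2 (older symbol Ctgf; ENSMUSG00000019997, chromosome 10, 24595442 to 24598683, plus strand) encodes connective tissue growth factor. It stood at 34.5 and 154 FPKM in Sham replicates 1 and 2 and at 127 and 125 in MI replicates 1 and 2. Sham replicate 2 was the highest and Sham replicate 1 the lowest of the 4 libraries, so the groups overlapped. Ccn2 was 4.02 times higher in Sham replicate 2 than in Sham replicate 1 in CPM, and 5.68% of all tested genes were at least 4 times higher there. Its level averaged 307 ± 261 CPM (n = 2) in Sham and 364 ± 25.6 in MI.

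The comparison for Ccn2 therefore turned on the Sham library used. Against Sham replicate 1 alone the log2 difference was 1.57 ± 0.18 (edgeR, adjusted p = 0.0991), and against Sham replicate 2 alone it was -0.43 ± 0.17 (adjusted p = 0.338), each with the lone library assumed to vary like the MI libraries. The atrial marker Nppa, atrial natriuretic peptide, stood at 151 and 3515 FPKM in Sham and at 2632 and 1855 in MI. The other 9 atrial markers summed to 12.1 and 1585 FPKM in Sham and to 21.3 and 14.2 in MI. Both had the same lowest and highest library as Ccn2. The sum of the 9, unlike Ccn2 and Nppa, was far lower in both MI libraries than in Sham replicate 2. The genes nearest in profile to Ccn2 were the pseudogenes Gm5641 (0.14) and Gm17828 (0.18), whose counts could include reads of their parent genes, and Twsg1 (0.19), which encodes an extracellular modulator of BMP signalling. The part of the atrial transcripts in the Ccn2 level was not tested. An antisense gene, Gm15270, overlaps Ccn2 with 218 to 437 counts per library against 7784 to 31927 for Ccn2, and no source used here says whether reads were counted by strand.

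Ccn3 (older symbol Nov; ENSMUSG00000037362, chromosome 15, 54745702 to 54754039, plus strand), which opposes Ccn2 in several cell systems, stood at 0.62 and 3.16 FPKM in Sham replicates 1 and 2. In MI replicates 1 and 2 it stood at 1.67 and 0.88. As with Ccn2, Sham replicate 2 was the highest and Sham replicate 1 the lowest. Ccn3 averaged 6.17 ± 5.59 CPM (n = 2) in Sham and 3.64 ± 1.33 in MI, and the log2 difference of -0.76 ± 0.75 did not pass (edgeR, adjusted p = 0.728). It was -1.47 ± 0.38 without Sham replicate 1 and 0.71 ± 0.44 without Sham replicate 2. The nearest profiles were those of Retnla (0.07), a secreted product of alternatively activated macrophages and fat tissue, the class I histocompatibility gene H2-K1 (0.15), and Olfml3 (0.17), a secreted olfactomedin-like protein.

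Ccn6 (older symbol Wisp3; ENSMUSG00000062074, chromosome 10, 39150970 to 39163794, minus strand) had 0 counts in both Sham libraries and 3 and 7 counts in MI replicates 1 and 2. Every library lay under the floor of 12 counts, so Ccn6 was not detectable at this depth in either group and no fold is given. It overlaps Tube1 on the other strand, which had 29 to 117 counts, and 454 of its 1389 stretches of 31 bases also occur in transcripts of Tube1. Among themselves the 6 members shared 0 stretches of 31 bases in their GRCm38 transcripts. Ccn2 shared 566 of its 2867 with 16 other genes, Gm15270 among them, and Ccn3 shared 42 of its 2819 with other genes.

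All 5 tested members were lowest in Sham replicate 1, where 27.3% of all genes had their lowest level in CPM. It follows, and is no separate result, that all 5 were higher in Sham replicate 2 than in Sham replicate 1 (48.6% of all genes were). The ratios were 1.67 for Ccn1, 4.02 for Ccn2, 4.56 for Ccn3, 1.88 for Ccn4 and 1.72 for Ccn5. Between the MI libraries, Ccn3, Ccn4 and Ccn5 were 1.70, 2.10 and 2.97 times higher in MI replicate 1, whereas Ccn1 and Ccn2 stood at 1.03 and 0.905 times. With Ccn1 that makes 4 of 5 members higher in MI replicate 1, as were 50.5% of all genes. The pair of abundant members thus varied mainly within Sham, and Ccn4 and Ccn5 within both groups.

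**Figure D3:**
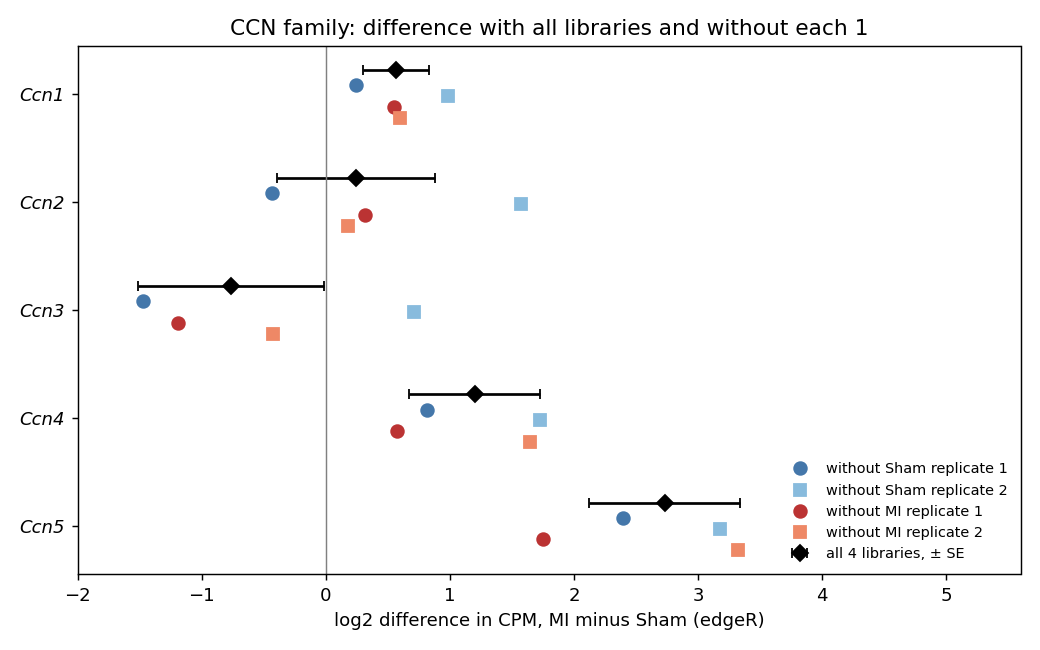
Log2 difference of MI minus Sham in counts scaled for library size for the 5 tested members, with all libraries (diamond, bar ± SE from edgeR) and without each library in turn. Ccn5 stays between 1.75 and 3.32 and Ccn1 and Ccn4 stay above 0, while Ccn2 and Ccn3 lie on both sides of 0 depending on the Sham library left out.

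Of 12 cell surface partners of CCN proteins, 3 were higher in MI and 1 lower at an unadjusted p under 0.05 in edgeR. The shares of all genes were 7.12% and 4.51%. When adjusted over all genes, 0 of the 12 passed in edgeR (2 in DESeq2, both higher, against 2.18% of all genes). The median log2 difference of the 12 was 0.07. Itgb5, the integrin chain that pairs with the alpha v chain, stood at 16.9 and 17.1 FPKM in Sham and at 40.2 and 30.2 in MI, a log2 difference of 0.82 ± 0.15 (edgeR, unadjusted p = 0.00293). Itgb1, the most abundant of them and common to many CCN receptors, had 0.11 ± 0.24. The endocytic receptor Lrp1 and the fibronectin receptor chain Itga5 had 0.57 ± 0.14 and 0.44 ± 0.12, both at an unadjusted p under 0.05. The syndecan Sdc4, a heparan sulfate proteoglycan, was the 1 lower, at 20.3 and 36.4 CPM in the Sham libraries against 14.7 and 12.8 after infarction (-1.04 ± 0.31). Both counts of partners moved when 1 library was left out, as did the number of all genes at an unadjusted p under 0.05.

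YAP and TAZ, the coactivators restrained by the Hippo kinases, drive Ccn1 and Ccn2 through TEAD factors. Of 21 other genes commonly used as their targets, 3 were higher at an unadjusted p and 0 lower (7.12% and 4.51% of all genes). The median log2 difference was 0.04, and 0 passed over all genes in edgeR (2 in DESeq2, both higher, against 2.18% of all genes). The 3 were the receptor kinase Axl (0.70 ± 0.14), Igfbp3, a carrier of insulin-like growth factors (0.76 ± 0.15), and the membrane protein Myof (0.82 ± 0.30). Ankrd1, a stretch response gene of cardiomyocytes, was the most abundant of these targets. It stood at 835 and 1688 CPM in the Sham libraries against 1897 and 1000 after infarction, so the groups overlapped. Its highest library was MI replicate 1, whereas that of Ccn2 was Sham replicate 2. Ccdc80, a matrix protein and the next in abundance, had 0.70 ± 0.28. The counts of higher and lower targets moved when a Sham library was left out, as did the number of all genes at that p. Of 16 tested Hippo components 3 were higher at an unadjusted p (Mob1a, a kinase adaptor, and the TEAD cofactors Vgll3 and Vgll4) and 0 lower. These counts moved too when 1 library was left out. The most abundant, Nf2 and the coactivator TAZ gene Wwtr1, had -0.12 ± 0.14 and 0.36 ± 0.36.

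The background for the TGF-beta, Wnt and serum response factor lists was 7.12% of all genes higher and 4.51% lower at an unadjusted p. In DESeq2, 2.18% of all genes were called higher. Of 15 genes of TGF-beta signalling, the main inducer of Ccn2 in fibroblasts, 4 were higher at an unadjusted p and in DESeq2 and 0 lower, with a median log2 difference of 0.24. They were Ltbp2, a latent TGF-beta binding protein that also stands among the activated fibroblast markers (4.17 ± 0.40), the ligands Tgfb3 (1.58 ± 0.27) and Tgfb1 (0.64 ± 0.14), and the receptor Tgfbr1 (1.32 ± 0.30). Tgfbi, a secreted matrix protein induced by TGF-beta, had 0.04 ± 0.16. Of 8 tested Wnt targets 1 was higher, the Wnt antagonist Nkd2, at 1.84 and 2.31 CPM in the Sham libraries against 7.11 and 6.08 after infarction (1.67 ± 0.26). Axin2 had 0.70 ± 0.43. Of 14 genes of the serum response factor group 2 were higher, the cytoskeletal genes Vcl and Flna (0.49 ± 0.14 and 0.51 ± 0.18), and 0 lower. Their most abundant members Tpm1 and Acta2 had -0.24 ± 0.18 and 0.13 ± 0.38. In edgeR 0 genes of these 3 lists passed over all genes. Counts at an unadjusted p moved in each list when 1 library was left out, as did the number of all genes at that p.

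The immediate early genes, to which Ccn1 belongs by its kinetics, mostly had negative differences. Of 19, 6 were lower in MI at an unadjusted p and 0 higher (4.51% and 7.12% of all genes), with a median log2 difference of -0.85, and 0 passed over all genes in edgeR (5 in DESeq2, all lower, against 1.26% of all genes). For 11 of them the groups did not overlap, with MI lower, as was the case for 21.9% of all genes. The 6 were Fos, Fosb, Fosl2, Junb, Egr1 and Zfp36. Junb, an AP-1 subunit, stood at 26.4 and 32.3 CPM in the Sham libraries against 12.4 and 13.5 after infarction (-1.18 ± 0.17). The most abundant, Ier3 and Btg2, had -0.16 ± 0.22 and -0.93 ± 0.40. In Sham replicate 2, which was high for Ccn2, 18 of the 19 were higher than in Sham replicate 1, and their summed level was 206 FPKM against 117 to 121 in the other libraries. The counts of lower and higher genes among the 19 moved when 1 library was left out, as did the number of all genes at that p.

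**Figure D4:**
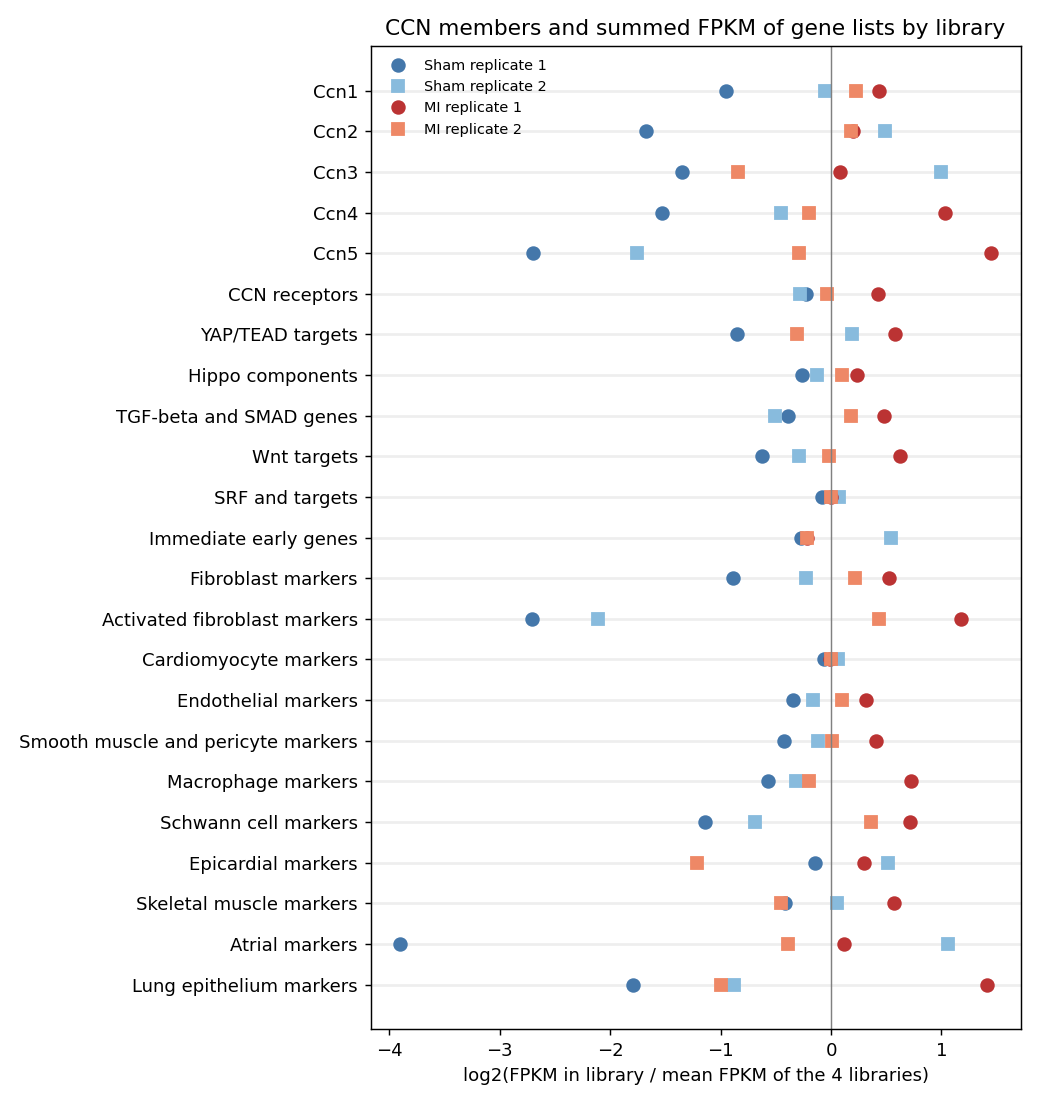
Level in each library relative to the mean of the 4 libraries (log2 of the FPKM ratio) for 5 CCN members and for the summed FPKM of gene and marker lists. Ccn1, Ccn4 and Ccn5 are lowest in Sham replicate 1, then Sham replicate 2, then MI replicate 2, and highest in MI replicate 1, as are 8 lists (Hippo, Wnt, fibroblast, activated fibroblast, endothelial, smooth muscle, macrophage and Schwann cell), and Ccn2 and Ccn3 have Sham replicate 2 highest, as do the immediate early, serum response factor, cardiomyocyte, epicardial and atrial lists and the adipocyte markers, which are not drawn.

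In the annotation deposited with the table, all 6 members carry the term insulin-like growth factor binding, which 22 genes of the table carry. Integrin binding and heparin binding stand at 5 of the 6, Ccn5 being the exception for both. Ccn5 carries 5 terms in all, against 16 to 58 for the other members, so a missing term does not show that it lacks the function. In the GRCm38 gene models each member spans 4 or 5 exons in its longest coding transcript, and the start and end in the table were the same as in the models for all 6.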

How the data were processed

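The authors' deposited table gives estimated counts per gene, as whole numbers, and FPKM, which the authors scaled for length and library, per the file headers. Tools named in the submitters' processing notes, without roles, are HISAT2 2.0.4, cutadapt 1.9, UMI-tools and StringTie 1.3.4d. Neither the build nor the use of strand is given in the sources used here, and 99.5% of the table's identifiers were found in GENCODE M21 (GRCm38).

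Libraries were grouped by sample title. The main test was the 2-sided quasi-likelihood test of edgeR 4.0.16 under R 4.3.3, on TMM-scaled counts of the 18475 genes that filterByExpr kept (minimum count 10, minimum total 15). Group was its sole term, p-values were adjusted by Benjamini-Hochberg at 0.05, and the step was tested on simulated data. CPM are TMM-scaled. Alternatives were DESeq2 1.42.0, limma 3.58.1 on FPKM, other scalings and filters, a replicate block and leaving out each library.

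The CCN members were found by symbol and all are described. Of each pathway list, the 2 genes of highest mean FPKM and those at an unadjusted p under 0.05 were named, except 1 gene that is not reported here. Members and lists were chosen with earlier results of these data known. Totals ranged from 66624106 to 75979320 counts. Marker lists for endothelial, smooth muscle, macrophage, epicardial, Schwann and skeletal muscle cells had summed levels of 251 to 397, 179 to 317, 176 to 431, 4.86 to 16.1, 11.1 to 40.0 and 712 to 1442 FPKM over the libraries.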

Additional observations from a re-analysis of the deposited data

How the results depend on the processing

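Of the 9 alternatives that kept all 4 libraries, edgeR with another scaling, filter, count scale or the replicate block (6) and limma on FPKM (2) called 0 genes, and DESeq2 called 635. Leaving out 1 library in turn gave 0 to 14 genes. The number of CCN members called was 1 in DESeq2 (Ccn5, log2 difference 2.72) and 0 in each other alternative. Ccn2 reversed without Sham replicate 1 (-0.43) and Ccn3 without Sham replicate 2 (0.71); the cause was not tested. Without 1 library Ccn1 ranged from 0.25 to 0.98, Ccn2 from -0.43 to 1.57, Ccn3 from -1.47 to 0.71, Ccn4 from 0.57 to 1.73 and Ccn5 from 1.75 to 3.32. With all libraries the alternatives gave 0.54 to 0.83 for Ccn1, 0.22 to 0.79 for Ccn2, -0.79 to -0.21 for Ccn3, 0.43 to 1.34 for Ccn4 and 2.23 to 2.88 for Ccn5, on the log2 scale. The adjusted p of Ccn5 over these alternatives was 8.02e-05 to 0.529. Ccn4 fell under the filter on a mean of 1 FPKM and Ccn6 under the count filter, so neither has a value there.

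Relative to TMM scaling, the median of all genes moved by 0.14 on the log2 scale without mitochondrial transcripts and by 0.19 in limma on log2(FPKM + 0.1). Higher genes made up 61.2% of the genes at an unadjusted p under 0.05 as reported, 82.0% without mitochondrial transcripts, and 86.9% and 86.4% in limma with a pseudocount of 1 and 0.1. Genes at that p numbered 2150 as reported, 810 without MI replicate 1 and 1193 without MI replicate 2. In the replicate block, libraries with the same number were paired; the labels state no pairing, and deviations of same-numbered libraries correlated at -0.04 across genes. The block called 0 genes and gave 0.61, 0.57, -0.44, 1.17 and 2.57 for Ccn1 to Ccn5. Depth limits Ccn6, which lay under the floor in every library.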
